A study of Myzus persicae with 16 samples.

Results

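Habituated green peach aphids (Myzus persicae) were compared with non-habituated aphids in the absence of added alarm pheromone on 4 arrays, which are all arrays of 16 whose titles set these conditions against each other. The habituated aphids had lived on Arabidopsis thaliana 35S:EBFS plants, and the non-habituated aphids on wild-type Col-0 plants. Both groups belonged to the red tobacco adapted strain, were kept on their plants for at least 6 months under a 16 h day and an 8 h night, and were handled in pools of 50 aphids that met hexane solvent alone for 30 min. The other 12 arrays of the series also used aphids that met 1 µg of EBF in hexane, from either plant. The design text speaks of 4 biological replicates, but the labels do not say which arrays share an extract, so every p-value measures the spread between arrays, part of which may be technical. The age, the form and the number of plant lines are not given in the sources used here, and the groups differ in the whole rearing on the plant, not only in the pheromone. How far the effects of the plant and of habituation account for a ratio cannot be told apart in this design.

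EBF, (E)-beta-farnesene, is the main alarm pheromone of many aphids. An attacked aphid releases it in droplets from its cornicles, and neighbours that smell it withdraw their stylets, walk away or drop from the plant. Habituation is the waning of such a response under continued exposure. The 35S promoter of cauliflower mosaic virus drives expression in most plant tissues, so a 35S:EBFS plant, which carries an EBF synthase gene behind it, gives off the pheromone without an attack. The comparison asks which transcripts differ between aphids with and without this history when no EBF is added. In RNA from homogenized aphids, fewer cells of a type and less RNA per cell cannot be told apart.

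The arrays carried 14628 probes for 10489 sequence names, of which 4139 had 2 probes. Contig names stood on 14434 probes, and 0 names matched the RefSeq gene table of this species, so the probes are called by contig and no role is given to any of them. Markers of cell types could not be read for the same reason. Testing was limited to 12840 probes for 9000 names whose signal, in either condition, stood well above background on 2 or more of its 4 channels. All 4 arrays lay on slide 2. The red Alexa Fluor dye AF647 held the habituated RNA on arrays 1 and 3, and the green dye AF555 held it on arrays 2 and 4. Median probe intensity was 814 to 1419 in the habituated channels and 906 to 1305 in the non-habituated channels. Well above background were 86.0% to 87.6% of probes in the habituated channels, against 76.5% to 87.6% in the non-habituated channels, with the low values 78.5% and 76.5% on arrays 2 and 4. At most 3.55% of probes were saturated in red and at most 0.403% in green. For arrays, the number of arrays limits the precision. Every direction given here rests on the dyes as labelled. Deviations of these arrays and of the same-numbered arrays of EBF over solvent in habituated aphids, signed so that a shared extract of solvent-treated habituated aphids gives a positive value, correlated across probes at -0.43, -0.40, 0.028 and -0.16 for numbers 1 to 4. The files do not settle whether extracts were shared or whether dyes or extracts were exchanged in a group, and with the direction turned every sign below would turn.

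No probe passed the test for a difference between habituated and non-habituated aphids. In limma's fit of the 4 arrays, which held a dye effect for each probe, 0 of 12840 probes (0%) had a Benjamini-Hochberg adjusted p under 0.05, and the smallest adjusted p was 0.267. At an unadjusted p under 0.05 stood 1501 probes (11.7%), against 642 for 5% of the probes tested. Of these, 675 (5.26%) were higher in habituated aphids and 826 (6.43%) were lower. The 4 arrays leave 2 residual degrees of freedom per probe, to which limma added 2.75 from the other probes. These p-values thus measure the spread between arrays that carried the habituated RNA in the same dye. A gap between the dye orientations goes into the dye effect. Low p-values were more frequent than high ones, with 1501 probes under 0.05, 1185 in the next step of 0.05 and 426 in the last.

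**Figure D1:**
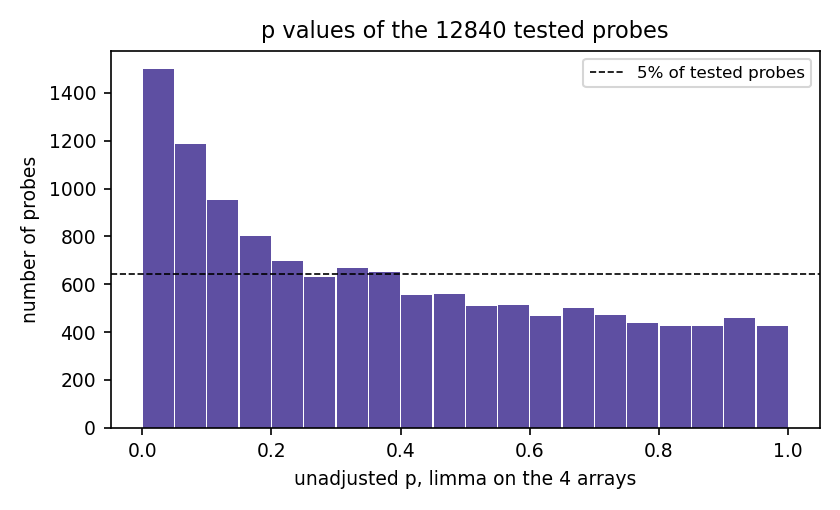
Number of the 12840 tested probes (vertical axis) in each step of 0.05 of the unadjusted p of limma (horizontal axis), with a dashed line at 642 probes, 5% of those tested. The lowest step holds 1501 probes and the counts go down to 426 in the last step.

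Most fitted differences were small, and most intervals lay within a doubling and a halving. The fitted log2 ratio of habituated over non-habituated aphids had a median size of 0.11 over the 12840 probes, 10% of probes exceeded 0.39 and 1% exceeded 0.89. The median standard error was 0.10, and the 95% interval reached a median of 0.27 to either side of the value. For 12120 probes (94.4%) the whole 95% interval lay between -1 and 1, while 720 probes had an interval that went past a doubling or a halving. These intervals are given probe by probe and are not adjusted for the number of probes. The dye effect had an SD over probes of 0.29, against 0.25 for the rearing value, and exceeded 1 in size at 168 probes.

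**Figure D2:**
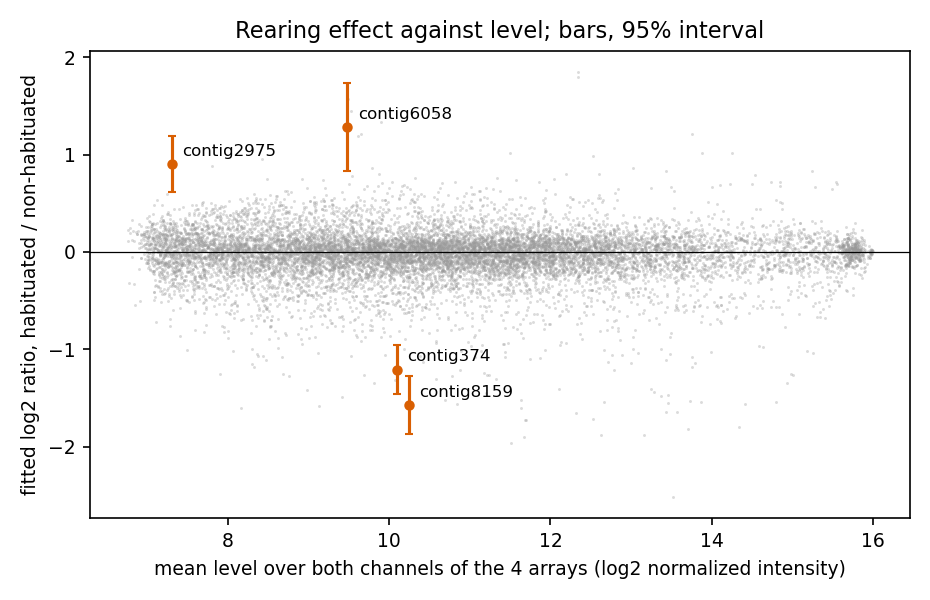
Fitted log2 ratio of habituated over non-habituated aphids (vertical axis) against the mean log2 normalized intensity over both channels of the 4 arrays (horizontal axis) for the 12840 tested probes, with the named contigs in orange and their 95% intervals as bars. Nearly all points lie within 1 of 0, and contig2975 sits among the dimmest probes.

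The ratios of single arrays had similar centres and unlike tails. The middle 50% of probes lay between -0.25 and 0.24 on array 1, between -0.17 and 0.14 on array 2, between -0.21 and 0.16 on array 3 and between -0.19 and 0.21 on array 4. Array 2 held 134 probes below -2, against 31, 78 and 18 on arrays 1, 3 and 4. At 57 of these 134 probes the other 3 arrays stayed within 1 of 0. Array 3 held 67 probes above 2, against 8, 20 and 4 on arrays 1, 2 and 4. Across probes, arrays with exchanged dyes had correlations of -0.19 (arrays 1 and 2), -0.17 (arrays 1 and 4), -0.14 (arrays 2 and 3) and 0.11 (arrays 3 and 4) once turned to habituated over non-habituated. Arrays of 1 dye orientation, which share the dye effect, had correlations of 0.21 (arrays 1 and 3) and 0.53 (arrays 2 and 4). These are descriptions across probes, which are not independent replicates.

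**Figure D3:**
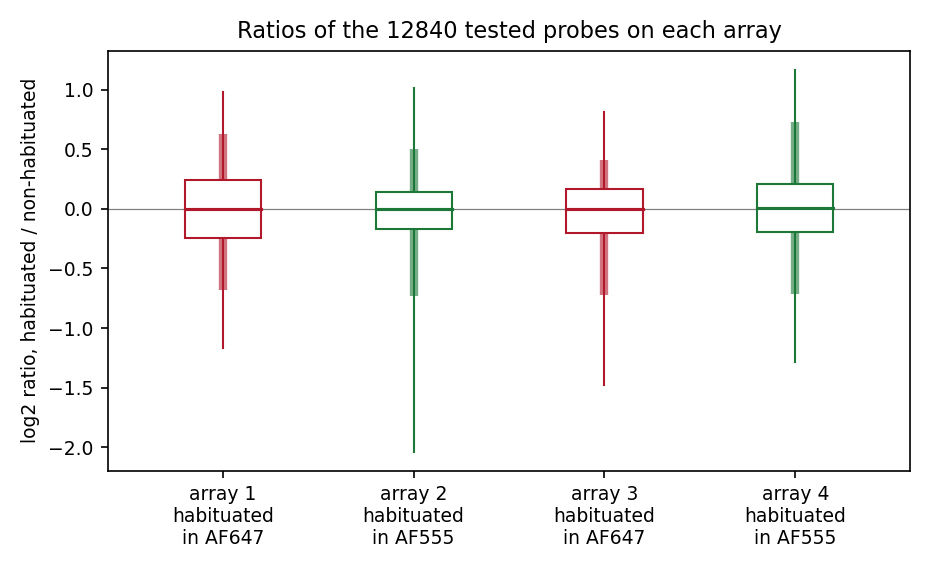
Distribution of the log2 ratio of habituated over non-habituated aphids (vertical axis) over the 12840 tested probes on each array, as a median with the middle 50% in the box, a thick line that leaves out 5% of probes at each end and a thin line that leaves out 1% at each end. Red marks arrays with the habituated RNA in AF647, green those with it in AF555, and the lower tail is longest on array 2.

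All 4 arrays gave the same sign at 2248 probes (17.5%), of which 1175 (9.15%) were higher in habituated aphids and 1073 (8.36%) were lower. Of the 1501 probes at an unadjusted p under 0.05, 439 higher and 505 lower ones belonged to these. The mean ratio went above 1 at 13 probes and below -1 at 90 probes. Without array 2 these counts were 12 and 79. With a size of at least 0.5 asked on every array, 2 probes remained on the higher side, contig2975 and contig6058, and 26 on the lower side, and 0 probes exceeded 1 in size on all 4 arrays. The direction of the split depended on the scaling. With quantile normalization of all channels, an alternative chosen after seeing the data, 941 probes at an unadjusted p under 0.05 were higher and 689 lower, and 1523 against 729 had the same sign on all 4 arrays.

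The 4 contigs described next have the smallest unadjusted p, 2 per direction, among probes with the same sign on all 4 arrays. Their shared sign was thus set by the choice and is no result. These contigs describe the ends of this table, since none passed the adjusted threshold. By p, contig8159 and contig374 ranked 1 and 2 of the tested probes and contig2975 and contig6058 ranked 22 and 33. The rule took the 2 higher contigs of smallest p, so no other higher contig of shared sign can come before rank 33. Nothing is read from these ranks. Over all tested probes, normalized channel levels that did not overlap between the groups were seen at 407 probes (3.17%) with habituated aphids higher and at 333 probes (2.59%) with habituated aphids lower. All 4 contigs are among these, and since the same ratios chose them, nothing is read from that.

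contig2975 had log2 ratios of 1.27, 0.79, 0.81 and 0.73 on arrays 1 to 4. All 4 arrays were above 0, which the choice required, and array 1 was the highest. Its log2 normalized level was 7.79, 7.69, 7.96 and 7.58 in habituated aphids, against 6.53, 6.89, 7.15 and 6.85 in non-habituated aphids, so the groups did not overlap. It was a dim probe, at the 3.61th percentile of brightness. It was well above background on 4 of 4 habituated channels and on 1 of 4 non-habituated channels. It thus passed the filter through its habituated channels alone. The mean log2 ratio was 0.90 ± 0.25 (SD, n = 4), with a 95% interval of 0.62 to 1.19 and limma's adjusted p of 0.267. With most non-habituated channels not well above background, the size of this ratio depends on how background was treated. The scanner software's processed signals gave a log2 ratio of 2.02. The named probe had the highest ratio of the 56 probes described below, which passed the filter in the same way. Nothing is therefore read from its ratio or sign. The other probe of contig2975 read 1.54, 0.62, 0.94 and 0.42, with a mean of 0.88 ± 0.49 (SD, n = 4). It too was well above background on 4 of 4 habituated channels and on 1 of 4 non-habituated channels, so the same limit holds for it.

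contig6058, measured by 1 probe, had log2 ratios of 1.79, 1.44, 1.04 and 0.86. Its level was 10.35, 10.18, 10.25 and 9.71 in habituated aphids, against 8.56, 8.73, 9.20 and 8.86 in non-habituated aphids. The lowest habituated level lay above the highest non-habituated level. The mean log2 ratio was 1.28 ± 0.42 (SD, n = 4), a 2.43-fold difference with a 95% interval of 0.83 to 1.74 and limma's adjusted p of 0.267.

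contig8159, measured by 1 probe, had the smallest p of all tested probes and log2 ratios of -0.82, -2.67, -0.59 and -2.22. The values split by dye, nearer 0 with the habituated RNA in red (arrays 1 and 3) than with it in green (arrays 2 and 4), and the fitted dye effect was 0.87. The level averaged 9.46 ± 0.83 in habituated aphids and 11.03 ± 0.20 in non-habituated aphids (SD, n = 4 each). The mean log2 ratio was -1.58 ± 1.02 (SD, n = 4), 2.98-fold lower, with an interval of -1.87 to -1.28 once the dye effect was taken out and limma's adjusted p of 0.267. In limma's fit without a dye effect, contig8159 had an unadjusted p of 0.00716 and an adjusted p of 0.522.

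contig374 had log2 ratios of -0.94, -1.27, -1.25 and -1.38, close together on both dye orientations. Its level averaged 9.49 ± 0.26 in habituated aphids and 10.70 ± 0.17 in non-habituated aphids (SD, n = 4 each). The mean log2 ratio was -1.21 ± 0.19 (SD, n = 4), 2.31-fold lower, with a 95% interval of -1.46 to -0.96 and limma's adjusted p of 0.267. Its other probe read -0.47, -1.65, -1.11 and -1.84, with a mean of -1.27 ± 0.62 (SD, n = 4). None of the spots of these 4 probes was saturated.

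Calls appeared only with array 4 left out. Without it, limma's fit of the other 3 arrays gave an adjusted p of 0.0348 for contig6058, 0.00931 for contig8159 and 0.0388 for contig374, and called 87 probes for 63 names, 5 higher and 82 lower. On array 4 itself, which that fit did not use, 69 of the 87 probes (79.3%) had the fitted sign, against 66.1% of all tested probes. A ratio read on 1 array still holds the dye effect, and array 4 has the dye orientation of array 2. This count therefore does not test the calls. The 82 lower probes had a median of -1.89 in that fit and of -0.27 on array 4. That fit has 1 residual degree of freedom, and array 2 is then the sole array with the habituated RNA in green. Array 2 is thus fitted exactly, and the residual spread comes from arrays 1 and 3 alone. Of the 4 arrays, array 2 also held the most probes below -2, as given above. Leaving out array 1, 2 or 3 gave 0 calls. In the joint fit of all 16 arrays the value was 0.56 for contig2975 and 0.66 for contig6058.

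The authors' deposited table gives log2 values of non-habituated over habituated aphids for this comparison, so its signs run the other way. A p-value under 0.05 stood at 1095 of 14628 probes (7.49%) in the authors' deposited table, without any adjustment made here. For contig374 the authors' deposited table gives 1.21 with p = 5.72e-05, and for contig8159 it gives 1.56 with p = 0.0113. For contig6058 the authors' deposited table gives -1.28 with p = 0.000742, and for contig2975 it gives -0.89 with p = 0.000638. Of the 1075 probes under 0.05 in the authors' deposited table that were tested here, 916 were also under an unadjusted 0.05 in the fit above.

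The same rearing comparison was made under EBF on 4 other arrays, all on slide 1, with no condition and no slide shared. contig6058, above 0 on every array without EBF, was at -0.96, -2.65, -1.34 and -0.55 with EBF, a mean of -1.38 ± 0.91 (SD, n = 4). contig2975 had -0.76, -0.80, -0.46 and 0.55 with EBF, a mean of -0.37 ± 0.63 (SD, n = 4). The named probe of contig374 had 0.05, -0.40, 0.24 and 0.21, all nearer 0 than any of its values without EBF. This did not hold for the other probe of contig374, which read 0.77, -0.62, 0.72 and -0.33 with EBF and -0.47 on array 1 without EBF. contig8159 had -1.85, 1.06, -0.57 and 1.03, with no shared sign. In the joint fit of 16 arrays, the rearing effect without EBF minus that with EBF passed an adjusted p of 0.05 at 609 of 12840 probes (4.74%), 205 above 0 and 404 below, with 2992 at an unadjusted p under 0.05. None of the 4 contigs was among them. By limma their differences were 0.58 ± 0.32 (SE, adjusted p = 0.284) for contig2975, 1.42 ± 0.57 (SE, adjusted p = 0.152) for contig6058, -1.02 ± 0.55 (SE, adjusted p = 0.281) for contig8159 and -0.62 ± 0.22 (SE, adjusted p = 0.114) for contig374. The 8 direct arrays alone called 0 probes for this difference in limma, with 1756 at an unadjusted p under 0.05 and a smallest adjusted p of 0.133. On these 8 arrays the differences were larger in size, at 1.27 for contig2975, 2.66 for contig6058, -1.49 for contig8159 and -1.24 for contig374. On these direct arrays, slide and presence of EBF cannot be told apart.

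**Figure D4:**
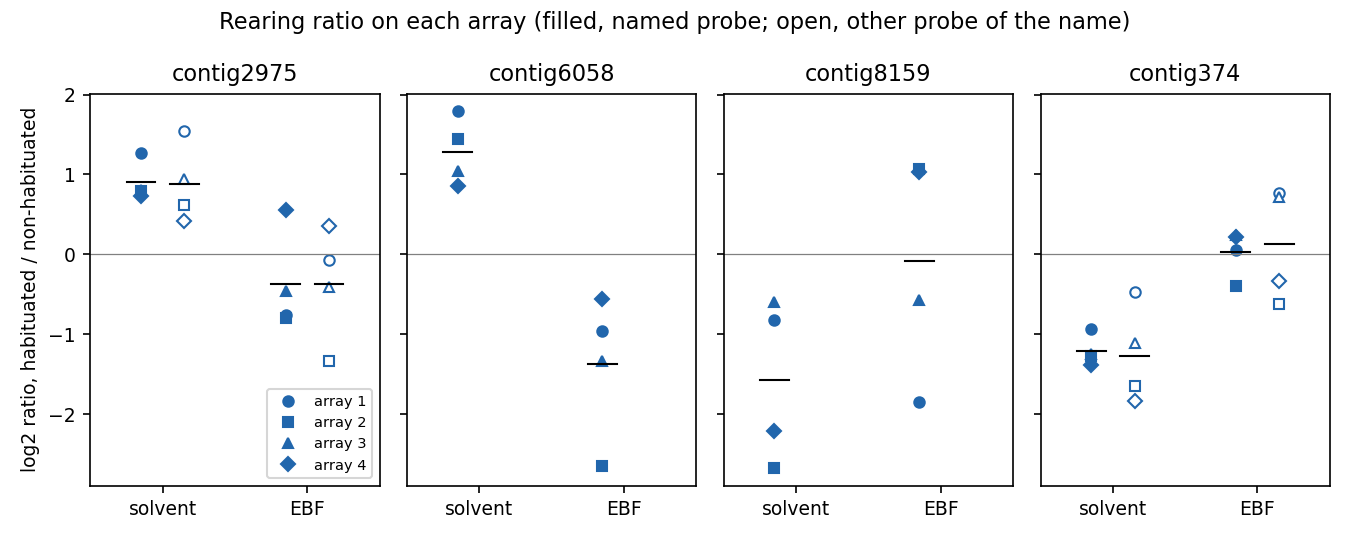
Log2 ratio of habituated over non-habituated aphids (vertical axis) on each of the 4 arrays without EBF (solvent) and each of the 4 arrays with EBF, for the 4 named contigs, with filled points for the named probe, open points for the other probe of the contig and a bar at the mean. contig6058 lies above 0 on all arrays without EBF and below 0 on all arrays with EBF.

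Across the 12840 probes the mean ratios without and with EBF had a Pearson correlation of -0.26 and a Spearman correlation of -0.16, and the Pearson value was -0.34 without array 2. This is a description across probes. The 26 probes below -0.5 on all 4 arrays without EBF, which stand for 21 contigs and hold both probes of 5 of them, had means between -2.51 and -0.66 with a median of -1.01. With EBF their median was 0.18 and their range -0.54 to 0.84. Of the 26, 8 (30.8%) had a mean below 0 with EBF, against 51.2% of all tested probes. On all 4 of those arrays, 0 of the 26 were below 0 and 3 were above 0. Over all 12840 tested probes these counts were 1195 and 982. For the difference, 1 of the 26 was called, beside the 4.74% of all probes. These probes were chosen by their values without EBF, so their level there is no result.

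Pairs of probes for 1 contig gave like values, and the spread between arrays was larger than that between the probes of a pair on 1 array. Over the 3840 names with 2 tested probes, the mean ratios of the probes had a correlation of 0.97. The SD between the probes of a name on 1 array was 0.098 to 0.16, against a median SD of 0.25 for 1 probe over the 4 arrays. Of 566 names with at least 1 probe at an unadjusted p under 0.05, both probes had the same sign in 566 and both were under 0.05 in 368, 147 higher and 221 lower. The probes of a name read the same labelled RNA on the same arrays, so their agreement does not show that the rearing difference repeats. The 6 contigs spotted 20 times on each array had an SD of 0.073 to 0.22 within an array and of 0.085 to 0.41 between the 4 arrays.

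The spread over arrays was somewhat larger at dim probes. In 4 groups of 3210 probes, ordered from dim to bright, the median SD over the 4 arrays was 0.29, 0.27, 0.22 and 0.23. The share at an unadjusted p under 0.05 was 13.8%, 13.6%, 10.7% and 8.69%. Probes with an SD over 1 numbered 56, 61, 54 and 193 in the same order, so most lay in the brightest group.

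Bright and variable probes held 2 sets with a shared pattern, both picked by their values, which are given as a description. The first comprises 34 probes for 25 names that lay below -4 on array 2 and below 2 on array 3. Their median ratios were -0.85, -5.04, 0.50 and -0.16 on arrays 1 to 4. On array 2 their median signal intensity was 557 in the habituated channel and 30365 in the non-habituated channel, while the habituated medians on the other arrays were 11739 to 16311. Array 2 had the lowest of these 4 habituated medians. The choice by its ratio favoured this, so nothing is read from it. The second set comprises 66 probes for 43 names above 2 on array 3 and below 0 on arrays 2 and 4. Their medians were 0.48, -2.04, 2.87 and -1.19, so red was above green on all 4 arrays. The median red signal was 65511 on each array, and 58 to 61 of the 66 probes had a saturated spot. A saturated channel gives only a bound, so these ratios are not exact values.

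**Figure D5:**
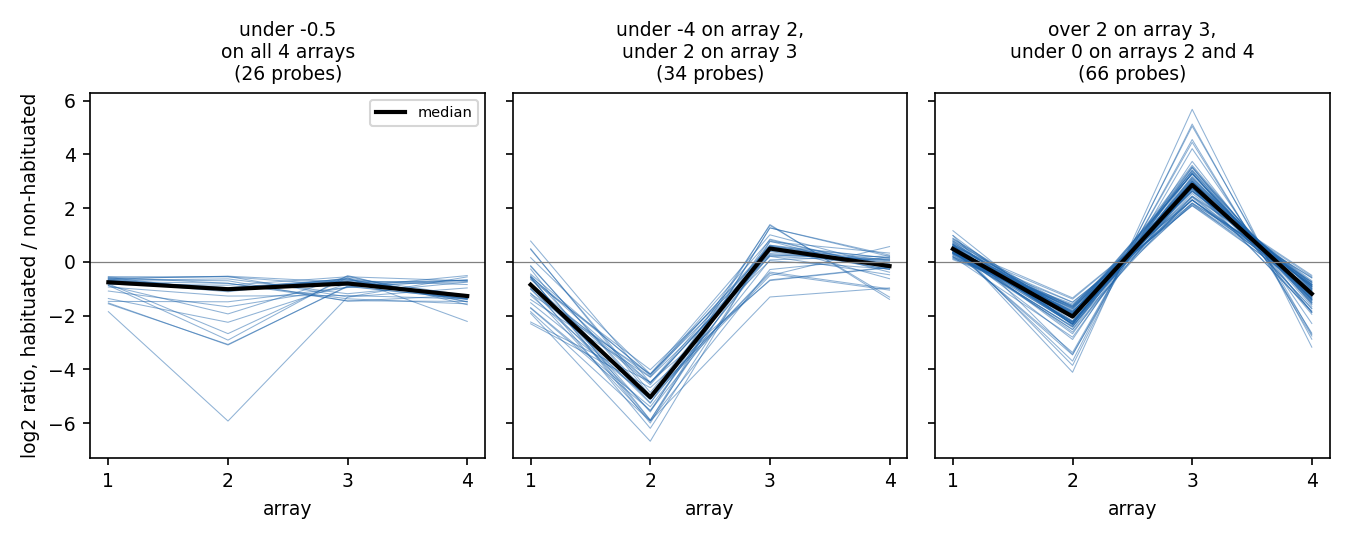
Log2 ratio of habituated over non-habituated aphids (vertical axis) on arrays 1 to 4 (horizontal axis) for 3 sets of probes chosen by these values, with 1 thin line per probe and the median as a thick line. The 26 probes of the left panel stay below 0 throughout, the 34 of the middle panel are all lowest on array 2, and the 66 of the right panel change sign with the dye. Some of the 34 are also far below 0 on array 1, down to -2.31. The probe at -1.85, -5.93, -1.31 and -0.97 is in both the left and the middle panel.

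At 56 dim probes of the 12840 tested, for 53 names, the signal was well above background on 4 of 4 habituated channels. On the non-habituated side it was so on at most 1 of 4 channels, and 0 probes had the reverse. These 56 probes passed the filter only through their habituated channels, so nothing is read from their ratios or signs. Their median log2 ratio was 0.14, with a range of -0.12 to 0.90, and 10 of the 56 had the same sign on all 4 arrays, beside 17.5% of all tested probes. All 56 lay at or below the 9.75th percentile of brightness. The lower detection in the non-habituated channels of arrays 2 and 4, given above, moved with this count, and its part was not tested.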

How the data were processed

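The authors hybridized amplified RNA with both dyes on Agilent 8x15K arrays. Per the file headers, the deposited scanner files came from Agilent Feature Extraction 10.5.1.1 and hold fluorescence intensity per spot on a linear scale. The authors' deposited table holds log2 ratios and p-values per probe, for which the submitters' processing notes name limma without a version. Compared with the scanner signals, the authors' log2 column was minus the mean of 4 arrays normalized by loess without background correction.

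Background correction of the median signals used normexp with an offset of 50, and each array was then loess-normalized (limma 3.58.1, R 4.3.3). The 1116 control spots had no weight in the loess, and 42 outlier spots were left out. As a result, 35 tested probes lack a value on an array. Ratios were turned to habituated over non-habituated by the dyes in the labels, which the files do not settle independently. limma's lmFit and eBayes fitted the 4 arrays with a dye effect per probe, and p-values were adjusted by Benjamini-Hochberg over 12840 probes. Channel levels were taken after Aquantile scaling. Where none passed the threshold and no gene name existed, the rule for named probes took the 2 per direction with the smallest p. Only probes with the same sign on all 4 arrays were eligible. Lists of gene names could not be applied, since 0 names matched the table of assembly MPER_G0061.0. The members, lists and rules were chosen with earlier results of these data known. The alternatives covered background correction, normalization, filters, dye effect, array weights, joint fits and each array left out.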

Additional observations from a re-analysis of the deposited data

Results flagged for a closer look

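contig2975 was marked because its log2 ratio on array 1, 1.27, stood apart from 0.79, 0.81 and 0.73 on arrays 2 to 4, with a gap past Dixon's critical value for 4 values. In 15 groups of 4 values examined this way, chance marks about 1 in 20.

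contig6058 was marked because its rearing ratio was above 0 on all 4 arrays without EBF, with a mean of 1.28, and below 0 on all 4 with EBF, with a mean of -1.38. In limma's joint fit the difference had an adjusted p of 0.152, so it did not pass. The shared sign without EBF was set by the choice of the named probes.

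Among the control spots that no comparison uses, 15 probes carry plant gene names with 20 spots each per array. At1g03880.1, named after an Arabidopsis gene, was well above background at 9 of 80 spots in the habituated channels and at 22 of 80 in the non-habituated channels. Its median signal was 100.25, 66.0, 94.0 and 104 in the habituated channels, against 95.5, 254.75, 79.0 and 219 in the non-habituated channels, with the high values in red on arrays 2 and 4. Negative control spots read 58.0 to 74.0 in both groups.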

How the results depend on the processing

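Over 19 alternatives limma called 0 probes in all except the fit without replicate 4, and leaving out 1 array gave 0 to 87 calls. The count at an unadjusted p under 0.05, 1501 here, was 996 without a dye effect, 688 in the joint fit of 16 arrays, 725 with a dye effect per slide in that fit, and 639 in the joint fit with the replicate block. It ranged over 701 to 2734 with 1 array left out. The count with the same sign on every array used was 2248, and 2920 to 5394 over 3 remaining arrays, where fewer arrays have to share a sign. The share of higher probes was 45.0% at an unadjusted p under 0.05 and 52.3% among those of shared sign. It was 57.7% and 67.6% with quantile normalization of all channels, 54.7% and 61.6% for the processed signals, 30.8% in the joint fit and 18.8% (unadjusted) without replicate 4. The causes of these shifts were not tested. Scaling moved the median of all probes to at most 0.023.

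None of the 4 contigs changed sign. Leaving out 1 array could not turn them, since the choice required the same sign on all 4 arrays. The filters on probes, the fit without a dye effect, array weights and slide 2 alone left their fitted values unchanged, so these settings do not test the sign. contig2975 ranged over 0.56 to 2.02 (limma's adjusted p 0.121 to 0.861) and is absent from the stricter filter, contig6058 was 0.66 or more (0.0348 to 0.861), contig8159 ranged over -1.71 to -1.34 (0.00931 to 0.861) and contig374 over -1.30 to -0.90 (0.0388 to 0.797). Their differences from the rearing effect with EBF had no call in 3 alternatives, though the 8 direct arrays alone gave values more than 1.5 times those of the joint fit for contig2975 (1.27), contig6058 (2.66) and contig374 (-1.24).

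Replicate numbers occur once within the 4 arrays, so a block exists only in the joint fit. Deviations of same-numbered arrays correlated at -0.43 to 0.028 with the EBF group of habituated aphids and at -0.35 to 0.46 with that of non-habituated aphids, so the numbers were not taken as pairs. The block had a consensus correlation of 0.054 and 0 calls. Aquantile scaling leaves ratios as they are by construction.

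With 2 residual degrees of freedom the 95% interval reached 0.27 to either side at the median probe before any adjustment. This width is not a limit of detection. Larger values did not pass the adjusted test, as contig8159 at -1.58 had limma's adjusted p of 0.267. Saturated spots hold only a bound on their channel's signal.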
